A study of Mus musculus with 5 samples.

Results

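The genes described here are 10 aldehyde dehydrogenases, Aldh1a1 with Aldh1a2, Aldh1a3, Aldh1a7, Aldh1b1, Aldh2, Aldh3a2, Aldh7a1, Aldh9a1 and Aldh18a1. They were chosen by gene symbol and not by their levels, and all 10 were found among the 23284 symbols of each count file. RNA was taken from primary acinar cells, which secrete the digestive enzymes of the pancreas, of C57BL/6 mice aged 8 weeks. The 2 control libraries were from p48-Cre mice, and the 3 knockout libraries from Arid1afl/fl;p48-Cre mice. Both groups thus carry Cre recombinase under p48 (Ptf1a), a pancreatic transcription factor gene, and the controls, titled wild type, differ by lacking the floxed Arid1a alleles. Cre driven by p48 acts in pancreatic progenitors, so deletion is not limited to acinar cells. Arid1a encodes a subunit of the SWI/SNF chromatin remodelling complex, and the comparison asks which acinar transcripts depend on it. The labels do not tie libraries to separate animals, so p-values rest on a spread among libraries that may be technical only.

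Aldehyde dehydrogenases oxidise aldehydes to carboxylic acids with NAD or NADP as the electron acceptor. Aldh1a1, Aldh1a2 and Aldh1a3 make retinoic acid, the ligand of the retinoic acid receptors, from retinaldehyde. Aldh1a7 is a mouse paralogue of Aldh1a1, and the other members handle acetaldehyde, fatty aldehydes and intermediates of amino acid and carnitine metabolism. In the pancreas, aldehyde dehydrogenase activity is known as a mark of centroacinar and terminal duct cells.

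Aldh1a1 and Aldh1a7 are neighbours on chromosome 19, on opposite strands and with 0 annotated genes between them. Their coding sequences are the only ones in the set that share stretches as long as a short read, so they are shown before the values. Both have 1503 coding bases, of which 126 differ, an identity of 91.6% (GENCODE M21, build GRCm38). The longest stretch without a difference is 100 bases, at coding bases 757 to 856 counted from the A of the start codon, and a read inside it fits both genes equally:
Aldh1a1 and Aldh1a7: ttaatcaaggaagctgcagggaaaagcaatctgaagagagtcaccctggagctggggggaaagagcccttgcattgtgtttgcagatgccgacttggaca
The most different 60-base window, at coding bases 317 to 376, has 16 differences, given in capitals, and a read there can be placed:
Aldh1a1: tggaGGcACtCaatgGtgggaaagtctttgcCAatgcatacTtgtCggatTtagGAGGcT
Aldh1a7: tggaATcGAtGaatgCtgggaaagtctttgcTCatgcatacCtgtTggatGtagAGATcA
Of the 50-base words of the Aldh1a1 transcript, 7.53% also occur in Aldh1a7 and none in another gene. The other 8 members shared 0 such words with any other gene. How the deposited counts treat reads that fit both genes is not given in the sources used here, so the split between Aldh1a1 and Aldh1a7 is uncertain. Aldh1a1 also overlaps E030003E18Rik, C730002L08Rik and Gm6684 in the RefSeq annotation, Aldh7a1 overlaps Phax and Mir1258, and Aldh18a1 overlaps Gm15801. The library kit does not mark strand, so reads of such overlaps cannot be told apart.

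The likeness extends to the promoters. The 110 bases before the transcription start of Aldh1a7 and of the downstream of the 2 Aldh1a1 starts differ at 6 positions, given in capitals (RefSeq, GRCm38.p6). The sequences run 5′ to 3′ on each gene's own strand, at chr19:20601858-20601967 (plus) for Aldh1a1 and chr19:20727557-20727666 (minus) for Aldh1a7:
Aldh1a1: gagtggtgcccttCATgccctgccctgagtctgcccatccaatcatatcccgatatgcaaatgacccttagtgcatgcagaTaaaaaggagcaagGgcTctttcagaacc
Aldh1a7: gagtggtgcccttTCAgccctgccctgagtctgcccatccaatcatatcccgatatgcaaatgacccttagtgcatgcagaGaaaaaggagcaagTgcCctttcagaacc
In the next 20 bases upstream 19 differ. Both stretches hold the letters CCAAT and the octamer ATGCAAAT without a difference. Searched on both strands in windows from 250 bases before to 50 after the start, ATGCAAAT is in 1.74% of 32851 RefSeq promoters and in 3 of the 8 member promoters in the table, those of Aldh1a1 (downstream start), Aldh1a2 and Aldh1a7. CCAAT is in 37.4% of all promoters and in 6 of these 8. TATAAA is in 13.6% of all promoters and, of these 8, in that of Aldh1a7, where it lies outside the 110 bases shown. A match is a description of letters and not of a bound site.

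Of the control counts 72.6% and 82.2% were for Rn45s, a precursor of ribosomal RNA, against 6.78% to 10.9% in the knockouts. Without it and Lars2, a mitochondrial leucyl-tRNA synthetase, 67514 and 72006 counts remained in the controls and 3155357 to 3568906 in the knockouts. CPM values below are counts scaled to those totals. A single count equals 14.8 and 13.9 CPM in the controls and at most 0.317 CPM in a knockout library. A count of 0 over both controls allows up to 21.5 CPM, taken as 3 counts of 139520. In both depth and Rn45s share the 2 controls lay apart from the 3 knockouts, so neither can be told apart from genotype. The acinar markers made up 382187 and 406980 CPM of the 2 controls and 351162 to 388005 CPM in the knockouts, although 1 of the 10, Amy2a5, was at 0 in every library. Arid1a itself had 0 and 3 control counts and 44, 121 and 42 knockout counts, a pooled ratio of 0.956 (exact 95% interval 0.323 to 4.67). The count covers the whole gene and does not check the deletion.

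Among the retinaldehyde dehydrogenases, Aldh1a1 was read in every knockout library and in no control library, which the control depth could not tell from an equal level. Its counts were 17, 99 and 52 in knockouts 1, 2 and 3, or 5.39, 27.7 and 15.5 CPM, and 0 in both controls. Knockout 2 stood highest and knockout 1 lowest, 5.15-fold apart. The pooled knockout level was 16.7 CPM, (exact 95% interval 14.3 to 19.4 CPM), and lay below the 21.5 CPM that the control depth allows. At the knockout level 2.33 control counts would have been expected, and 0 were found. The exact interval of the pooled ratio of knockout to control started at 0.624 and had no upper limit, so a difference in Aldh1a1 was not detectable at this depth. The edgeR quasi-likelihood test gave an adjusted p = 0.545, and no fold is given because no control count exists to set it. In bulk RNA, a change in the number of cells that express a gene cannot be told apart from a change in RNA per cell.

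**Figure D1:**
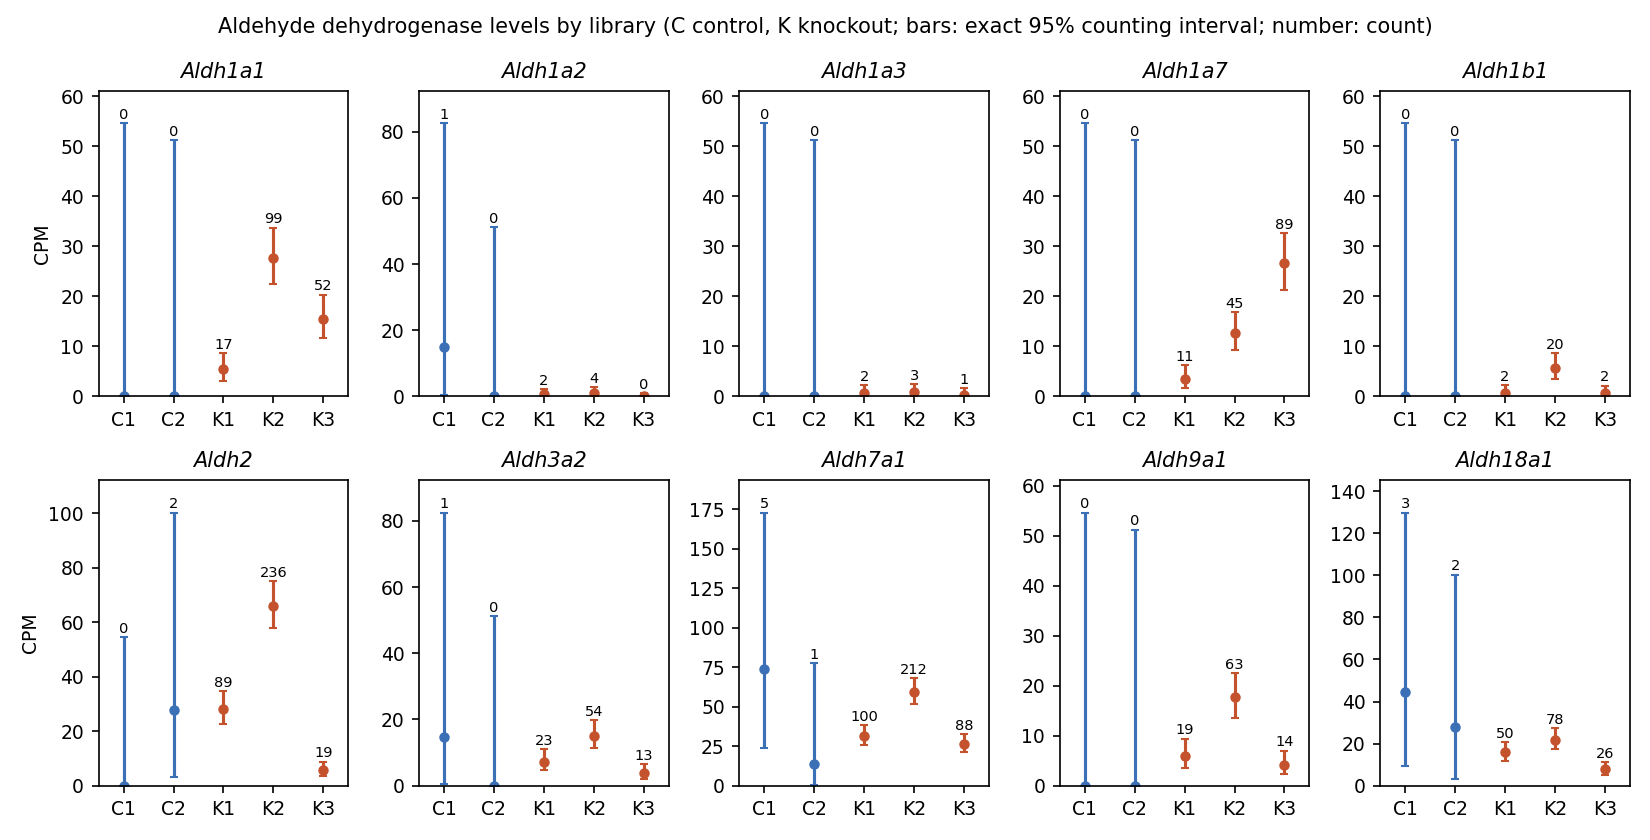
CPM of each of the 10 members (vertical axis, linear, its own range in each panel) in control libraries 1 and 2 (C1, C2, blue) and knockout libraries 1 to 3 (K1 to K3, orange), with exact 95% counting intervals as bars and the count above each. The control intervals reach at least 51.2 CPM for every member, and the knockout intervals are far narrower.

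Aldh1a7, the paralogue, had 11, 45 and 89 counts in knockouts 1, 2 and 3, or 3.49, 12.6 and 26.6 CPM, and 0 in both controls. Here knockout 3 was highest, whereas Aldh1a1 was highest in knockout 2. The interval of the pooled ratio started at 0.538 (adjusted p = 0.563, edgeR). Aldh1a7 made up 39.3% of the counts of the pair in knockout 1 (exact 95% interval 21.5% to 59.4%), 31.2% in knockout 2 (23.8% to 39.5%) and 63.1% in knockout 3 (54.6% to 71.1%). The intervals of knockouts 2 and 3 did not overlap, so these 2 libraries of the same genotype differed in the mix by more than counting error. Counted as 1 gene, a choice made after the data were seen, the pair had 313 knockout counts and 0 control counts where 4.34 would have been expected. The exact interval for the pair started at 1.17 and had no upper limit. This covers counting error only, and with the spread between libraries the pair did not pass (adjusted p = 0.449, edgeR).

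Aldh1a2 and Aldh1a3, the retinoic acid enzymes of embryonic and mesenchymal tissue and of sensory epithelia, were close to the limit of detection. Aldh1a2 had 2, 4 and 0 knockout counts and 1 and 0 control counts, and Aldh1a3 had 2, 3 and 1 knockout counts and no control count. Both stood at 0.596 CPM pooled over the knockouts, with an exact 95% interval of 0.219 to 1.3 CPM. Neither passed the filter on low counts, so neither was tested.

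Aldh2, the mitochondrial enzyme that clears acetaldehyde, had the widest range among the knockout libraries of all members with at least 2 counts in each. Its counts were 89, 236 and 19 in knockouts 1, 2 and 3, or 28.2, 66.1 and 5.68 CPM, and 0 and 2 in controls 1 and 2, or 0 and 27.8 CPM. Knockout 2 exceeded knockout 3 by 11.6-fold, and control 2 lay inside the knockout range. The pooled ratio of knockout to control was 2.38, and its exact 95% interval ran from 0.655 to 19.8 (adjusted p = 0.697, edgeR). The fitted log2 fold change of Aldh2, 1.23, was 0.26 without control 1 and 0.25 without knockout 2. Without control 2 no control count was left to set it. Aldh1b1, the mitochondrial relative of Aldh2 that is known from pancreatic progenitors, had 2, 20 and 2 knockout counts and no control count, and was not tested. Its 5.6 CPM in knockout 2 lay above the exact intervals of the other knockout libraries, whose upper limits were 2.29 and 2.16 CPM.

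Aldh7a1, or antiquitin, which acts in lysine breakdown, was the member with the most counts in both groups. It had 5 and 1 control counts, or 74.1 and 13.9 CPM, and 100, 212 and 88 knockout counts, or 31.7, 59.4 and 26.3 CPM. All 3 knockout libraries lay between the 2 controls, and the pooled ratio was 0.924 (exact 95% interval 0.421 to 2.53; adjusted p = 0.961, edgeR). Of the tested members Aldh7a1 had the narrowest interval on a log scale. Even here a difference of up to its bounds was not detectable at this depth. Among the knockout libraries Aldh7a1 also varied least of the members, by 2.26-fold.

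Aldh18a1, which makes the precursor of proline and ornithine from glutamate, had 3 and 2 control counts, or 44.4 and 27.8 CPM. Its knockout counts were 50, 78 and 26, or 15.8, 21.9 and 7.77 CPM, so both controls lay above all knockouts. The pooled ratio was 0.427, and its exact 95% interval, 0.179 to 1.33, includes equal levels (log2 fold change -1.24 ± 1.51 SE, adjusted p = 0.645, edgeR). The sign of this estimate turned with scaling by TMM, to 0.55 without Rn45s and Lars2. Aldh9a1, which acts in carnitine synthesis, had no control count and 19, 63 and 14 knockout counts, or 6.02, 17.7 and 4.19 CPM. Aldh3a2, the fatty aldehyde dehydrogenase of the endoplasmic reticulum, had 1 and 0 control counts and 23, 54 and 13 knockout counts, or 7.29, 15.1 and 3.89 CPM. Neither passed the test (adjusted p = 0.583 for Aldh9a1 and 0.951 for Aldh3a2, edgeR), and the interval of Aldh3a2 ran from 0.218 to 49.8.

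Of the 10 members 7 passed the filter on low counts, and 0 of these passed the test in either direction. Over all 8291 tested genes edgeR called 0.193% higher and 1.6% lower in the knockout, so a count of 0 among 7 is near this background. In this test 0 of the 7 had an unadjusted p under 0.05. Limma-voom called 0 of the 7, and DESeq2 called 0 of the 3 for which it gave an adjusted p (Aldh2, Aldh7a1 and Aldh18a1). Over all genes 16 were called higher and 133 lower, a split that became 147 and 71 with TMM factors. TMM also moved the median log2 fold change of all genes from 0.22 to 1.93, so log2 values under that scaling are to be read against that shift. By the counting interval alone, 0 of the 7 lay above or below 1, against 6.96% of all tested genes above and 21.8% below. The groups did not overlap for 3 of the 7 with the knockouts higher (Aldh1a1, Aldh1a7 and Aldh9a1) and for 1 with them lower (Aldh18a1). Over all tested genes these shares were 35.6% and 11.2%, so the members' counts are near the background. The 3 higher ones had no control count. The median fitted log2 fold change of the 7 was 1.23, against 0.22 over all tested genes. With genes that lack a control count set at the floor of 3 counts, the median log2 pooled ratio was -0.37 for the 7 and -1.11 for all.

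**Figure D2:**
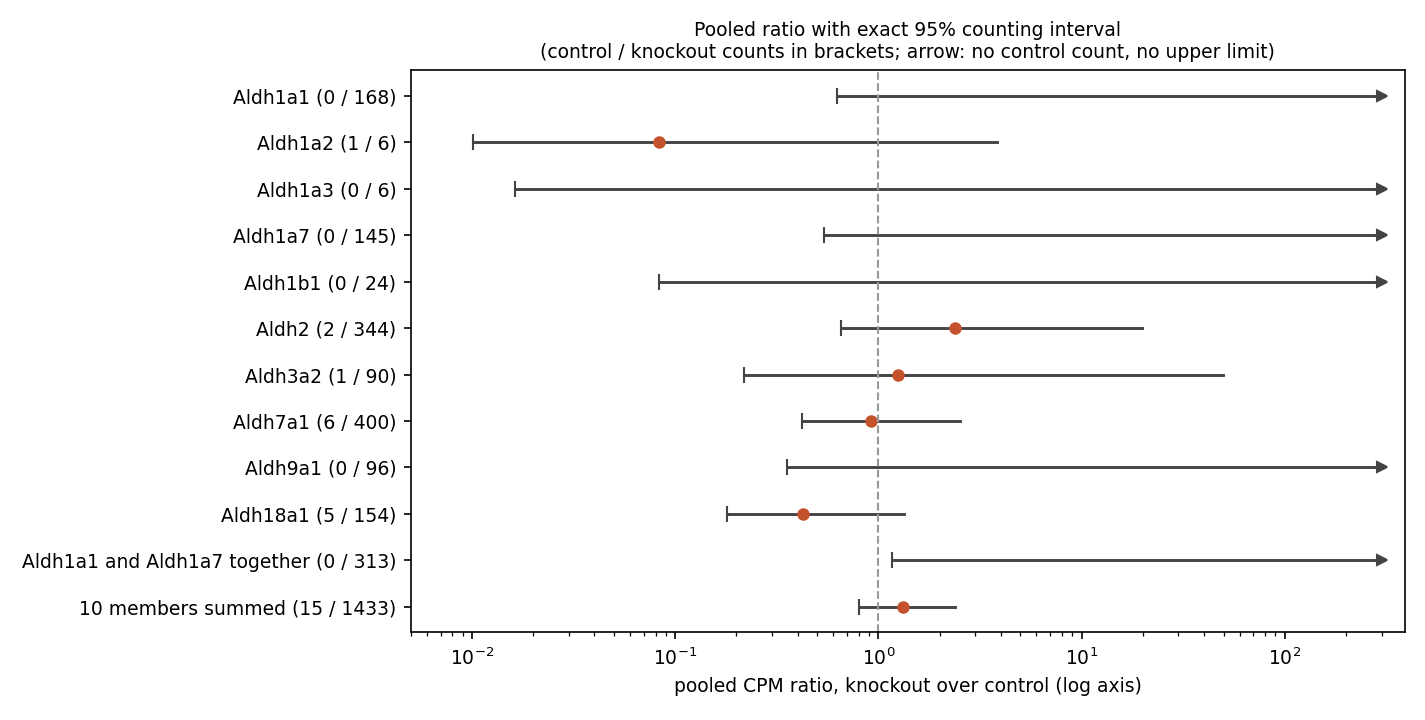
Ratio of pooled CPM, knockout over control (horizontal log axis), for each member, for Aldh1a1 and Aldh1a7 together and for the sum of the members; points are ratios, lines exact 95% counting intervals, and arrows mark intervals with no upper limit because there was no control count. The interval of every single member includes 1 (dashed), and that of the pair starts at 1.17.

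Summed over the 10 members, the controls had 148 and 69.4 CPM and the knockouts 99.8, 228 and 90.9 CPM. Control 1 lay above knockouts 1 and 3, so the groups overlapped. The control mean was 109 ± 55.6 CPM (SD, n = 2) and the knockout mean 140 ± 76.8 CPM (SD, n = 3). A two-sided exact permutation test, whose smallest possible p is 0.2, gave p = 0.8. The ratio of these means was 1.28 and fell below 1 without knockout 2 (0.877) or without control 2 (0.942), and it was 2.01 without control 1. It was 5.86 with totals that include Rn45s and Lars2.

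Which enzyme dominated in knockout cells was compared per kilobase of transcript, within each library, so that depth and scaling cancel. No single isozyme dominated all 3 knockout libraries. With merged exon lengths from GENCODE M21, Aldh7a1 held 27.7%, 21.8% and 19.3% of the summed counts per kilobase of the members in knockouts 1, 2 and 3. Aldh1a7 held 7.65%, 11.6% and 48.8%, so it was the largest in knockout 3 and far from that in knockout 1. The share of Aldh2 went the other way, with 24.9%, 24.6% and 4.2%. Aldh1a1 held 4.95%, 10.7% and 11.9%, a mean of 9.2% ± 3.73 (SD, n = 3), and had rank 5 of 10 by its mean. With the longest transcript in place of merged exons, 2358 and not 4937 bases for Aldh1a1, its mean share was 15% and its rank 4. Aldh7a1 was first by its mean under both lengths, though with merged exons its 22.9% was close to the 22.7% of Aldh1a7.

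**Figure D3:**
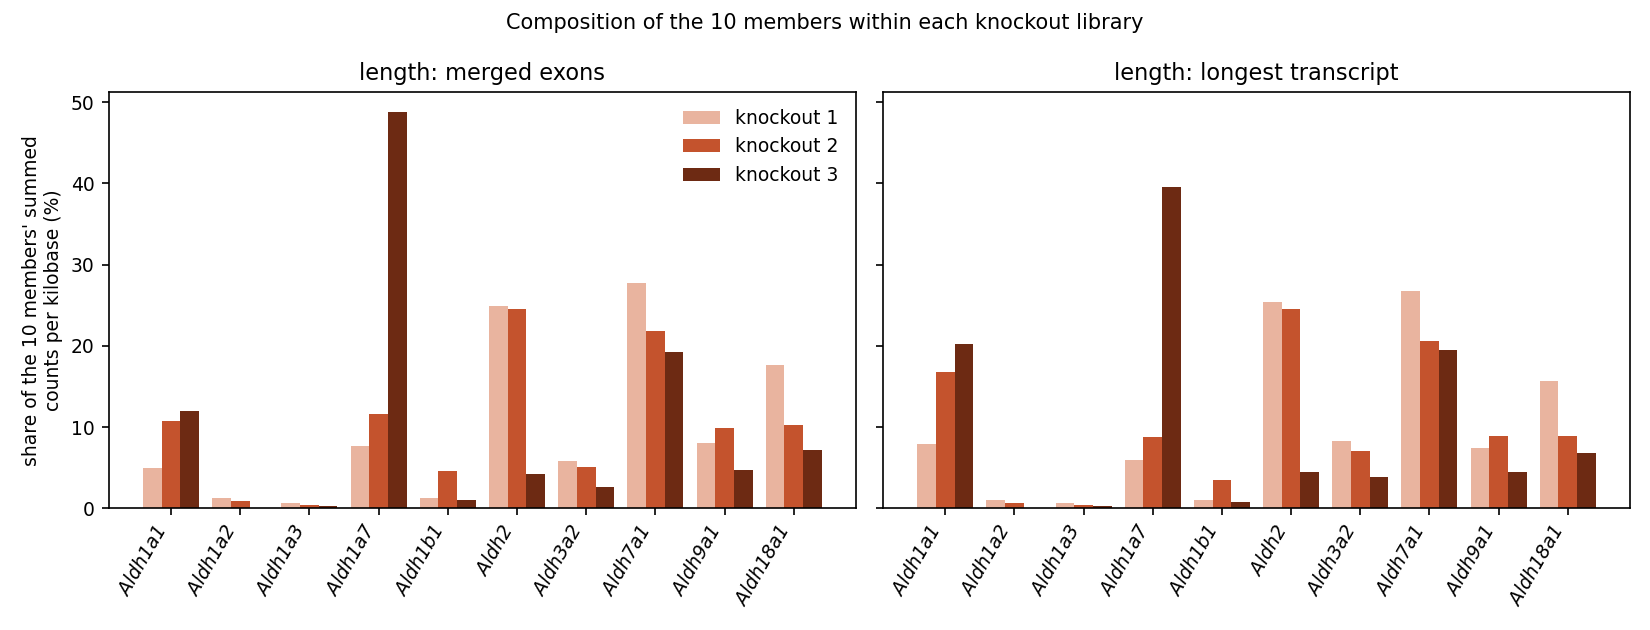
Share of each member in the summed counts per kilobase of the 10 members (vertical axis, %) in knockout libraries 1, 2 and 3 (light to dark bars), with merged exon length at left and longest transcript length at right. Aldh1a7 has the tallest bar in knockout 3 in both panels, with 48.8% at left, and at right Aldh1a1 (20.2%) stands next to it there, just above Aldh7a1 (19.5%).

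By the mean level per kilobase of merged exons the order was Aldh7a1, Aldh1a7, Aldh2, Aldh18a1, Aldh1a1, Aldh9a1, Aldh3a2, Aldh1b1, Aldh1a2 and Aldh1a3. The means ran from 7.55 ± 3.43 CPM per kilobase for Aldh7a1 (SD, n = 3) through 3.29 ± 2.27 for Aldh1a1 to 0.128 ± 0.0592 for Aldh1a3. Each neighbouring pair in this order overlapped in range over the knockout libraries. Within libraries, Aldh9a1 stood above Aldh3a2 and Aldh3a2 above Aldh1b1 in 3 of 3, and no other neighbour stood above the next in all 3. With longest transcripts the order began with Aldh7a1, Aldh2, Aldh1a7, Aldh1a1 and Aldh18a1, and the Aldh1a1 mean was 6.88 ± 4.75 CPM per kilobase. In the controls, with 10 and 5 counts of all members together, only Aldh7a1 and Aldh18a1 had counts in both libraries, and the order could not be set.

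The knockout libraries differed among themselves in the same direction for most members. Knockout 2 was highest for 9 of the 10 members, and it was highest for 90.1% of all tested genes. Knockout 3 was lowest for 8 of the 10, and for 81.4% of all tested genes. These counts therefore follow the libraries as a whole. Aldh1a1 and Aldh1a7 were the exceptions, lowest in knockout 1 as were 16% of tested genes. Aldh1a7 was also highest in knockout 3, as were 4.98%.

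Markers of most other cell types were also highest in knockout 2, as most genes were. The 7 macrophage markers in the files summed to 91.6, 326 and 74.4 CPM in knockouts 1, 2 and 3, and the 7 lymphocyte markers to 13.3, 74.8 and 11.1 CPM. Duct markers, all 8 with a knockout count, summed to 402, 1327 and 286 CPM, islet markers to 172, 906 and 213 CPM, and markers of fibroblasts and stellate cells to 62.4, 191 and 24.5 CPM. Mesothelial markers summed to 7.92, 78.2 and 8.97 CPM. Only 2 of these 6 markers had a knockout count, and Wt1, Lrrn4 and Upk1b were at 0 in every library. Endothelial markers summed to 94.8, 116 and 18.8 CPM and adipocyte markers to 124, 90.5 and 8.97 CPM, and all 5 red blood cell markers in the files were at 0. Acinar markers summed to 388005, 351162 and 368901 CPM, so knockout 2 was lowest there. In the controls these lists held from 0 to 101 counts apart from the acinar one. The part of these cells in the levels of the members was not tested. Knockout 3, the highest library for Aldh1a7, had the lowest macrophage, lymphocyte, duct, fibroblast, endothelial and adipocyte sums. Its islet, mesothelial and acinar sums were not the lowest. Of all tested genes 81.4% were lowest in knockout 3.

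**Figure D4:**
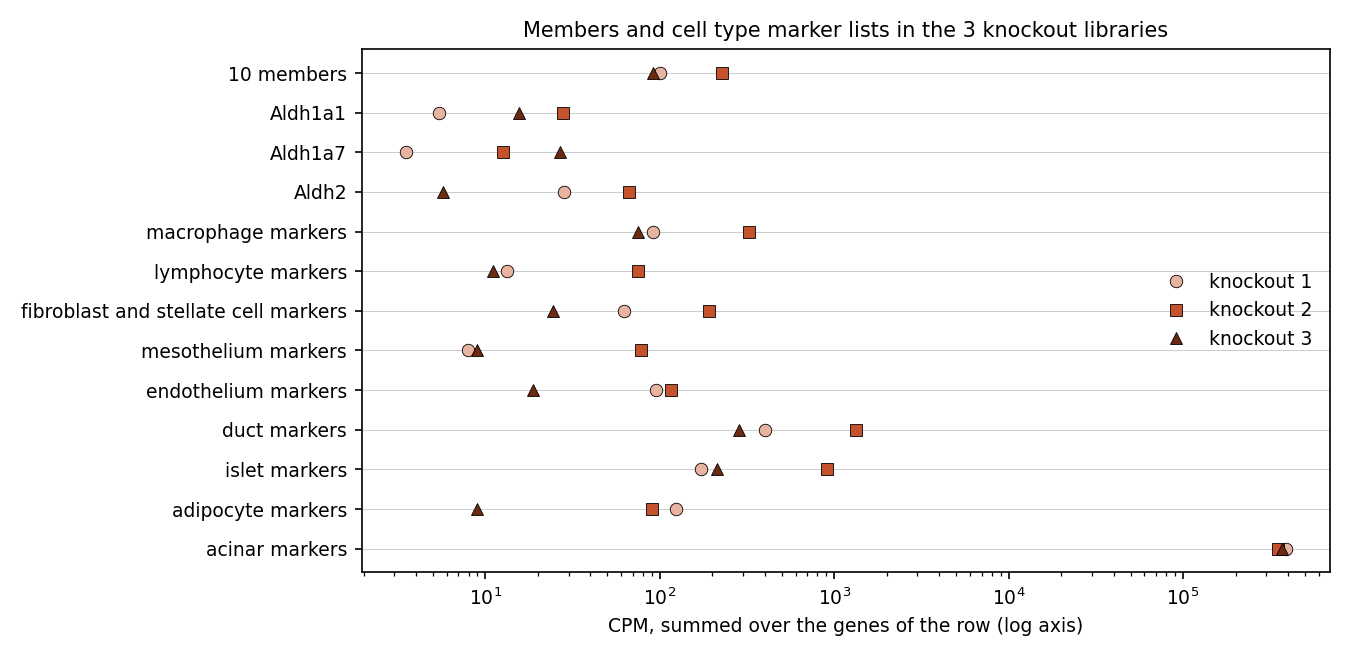
Summed CPM (horizontal log axis) of the 10 members, of Aldh1a1, Aldh1a7 and Aldh2, and of each cell type marker list in knockout libraries 1 (circles), 2 (squares) and 3 (triangles). Knockout 2 lies furthest right for the 10 members and for 7 of the 9 marker lists, all but the adipocyte and acinar ones, and knockout 3 lies furthest right for Aldh1a7.

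The genes whose profile over the 5 libraries was most like that of Aldh1a1, among 8284 tested genes outside the set, were Lsp1, Rac2 and Cln6. Likeness was the root mean square difference between centred log2(CPM + 10) values, which was 0.0711 for Lsp1, 0.0893 for Rac2 and 0.118 for Cln6. Lsp1, a leukocyte actin-binding protein, had 21, 91 and 48 knockout counts, and Rac2, a GTPase of blood cells, had 20, 92 and 42. Cln6, a membrane protein of the endoplasmic reticulum, had 26, 93 and 63, and none of these 3 genes had a control count. Over 5 libraries, with both controls at 0, the likeness rests on the 3 knockout values. Aldh9a1 was the nearest member at 0.352, and Aldh1a7 followed at 0.405.

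In the rest of the aldehyde dehydrogenase family, 5 of 10 further genes were tested. Of these 0 were called, against 0.193% higher and 1.6% lower over all tested genes. By the counting interval alone 0 of the 5 lay above 1 and 1 below, where 6.96% and 21.8% of all tested genes did. The groups did not overlap for 3 with the knockouts higher and for 1 with them lower, against 35.6% and 11.2% of all tested genes. Aldh6a1, of valine and thymine breakdown, had 57, 151 and 9 knockout counts and none in the controls, and Aldh1l1, a folate enzyme, had 72, 101 and 18 against 2 and 2. Aldh8a1, a relative with a role in tryptophan breakdown, had 1 and 4 control counts and 0 in all knockout libraries, a pooled ratio below an upper limit of 0.0151 by the exact interval. It did not pass the filter and was chosen here after its values were seen, as was Aldh1l2, another folate enzyme, with 3 and 2 control counts and 2, 8 and 28 in the knockouts (adjusted p = 0.332, edgeR).

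In the retinoid pathway, 11 of 26 genes were tested. Of these 0 were called higher and 1 lower, against 0.193% and 1.6% of all tested genes. The gene called was Cyp26b1, which degrades retinoic acid, with 0 and 14 control counts and 3, 12 and 6 knockout counts. In CPM this was 0 and 194 against 0.951, 3.36 and 1.79. A single count in control 1 equals 14.8 CPM, so its 0 does not place it below the knockouts. The log2 fold change was -5.54 with an adjusted p = 0.0297 (edgeR). The call rests on control 2, without which no control count was left to set a fold change. The call was lost, with estimates of the same sign, with TMM factors without Rn45s and Lars2 (-3.73, adjusted p = 0.0529), RLE factors (-4.24, adjusted p = 0.0561) and limma-voom (-4.42, adjusted p = 0.18). TMM factors with both genes also lost it (-3.76, adjusted p = 0.0632, edgeR). It was kept with DESeq2 (adjusted p = 0.00173) and with upper quartile factors (adjusted p = 0.0294, edgeR). The 2 other filters kept it too (adjusted p = 0.0137 and 0.0198, edgeR). Each of these fits included control 2. By the counting interval alone 5 of the 11 lay above 1 and 2 below, where 6.96% and 21.8% of all tested genes did. Those above 1 included Adh1, which oxidises retinol, Dhrs3, which reduces retinaldehyde, Rxrb, a nuclear receptor, and Tgm2, a transglutaminase induced by retinoic acid. Adh1 had 58, 158 and 53 knockout counts and Dhrs3 had 43, 196 and 64, both with no control count. None of the 5 passed edgeR's test. Below 1, beside Cyp26b1, was Rara, a retinoic acid receptor, with 12 and 5 control counts and 29, 88 and 21 knockout counts. Its pooled ratio was 0.112 (exact 95% interval 0.0677 to 0.199; adjusted p = 0.245, edgeR), and both controls lay above all knockouts. The genes named here were chosen after their values were seen. The median log2 pooled ratio of the 11, taking genes that lack control counts at the floor, was -0.85, against -1.11 over all tested genes.

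Around Aldh18a1, 13 of 16 listed genes of proline, ornithine and related amino acid metabolism were tested and 0 were called. Over all tested genes 0.193% were called higher and 1.6% lower. The most abundant in the knockouts were Asns, the asparagine synthetase, with 8 and 19 control counts and 259, 337 and 398 knockout counts, and Gls2, a glutaminase, with 0 and 3 against 247, 284 and 37. Asns had a pooled ratio of 0.51 (exact 95% interval 0.348 to 0.778) without passing the test (adjusted p = 0.633, edgeR). By the interval alone 0 of the 13 lay above 1 and 2 below, Asns and Oat, the ornithine aminotransferase, which is near or under the shares of 6.96% and 21.8% over all tested genes. Their median log2 pooled ratio with the floor was -1. Of 13 genes of lysine, choline and carnitine metabolism, around Aldh7a1 and Aldh9a1, 3 were tested and 0 called. Gcdh, of lysine breakdown, had 0 and 12 control counts and 90, 151 and 64 knockout counts. Shmt1, a serine hydroxymethyltransferase, had 0 and 1 against 15, 48 and 1. By the interval alone 0 of the 3 lay above 1 and 2 below, where 6.96% and 21.8% of all tested genes did. Those below were Gcdh, with a pooled ratio of 0.352 (0.199 to 0.689), and Chdh, with 0.0785 (0.0227 to 0.418). Chdh was named after its values were seen. Among 19 genes of alcohol and aldehyde metabolism found in the files, 13 were tested and 0 called. By the interval alone 2 of the 13 lay above 1 (Adh1 and Gstm1) and 2 below, where 6.96% and 21.8% of all tested genes did. Gstm1, a glutathione transferase, had 3 and 0 control counts and 385, 663 and 297 knockout counts, a pooled ratio of 6.21 (exact 95% interval 2.12 to 30.2; adjusted p = 0.46, edgeR). Those below, named after their values were seen, were Esd, an esterase, with a ratio of 0.248 (0.152 to 0.431), and Cbr3, a carbonyl reductase, with 0.15 (0.0696 to 0.387). Akr1a1, an aldehyde reductase, had 19 and 1 control counts and 223, 622 and 143 knockout counts.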

How the data were processed

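RNA of primary acinar cells was sequenced in 2 control and 3 knockout libraries. The deposited files hold raw read counts per gene symbol, not normalized. Per the submitters' processing notes the build was mm9 and the tools HTSeq 0.9.1, TopHat2 2.1.1, Cuffdiff 2.2.1.5 and Cuffnorm 2.2.1.2, in no stated roles. The sources used here give no annotation, strand setting or multi-mapping rule. CPM values use each library's total without Rn45s and Lars2. edgeR 4.0.16 (R 4.3.3) fitted a quasi-likelihood model on those totals with group as the only term, after filterByExpr, with Benjamini-Hochberg adjusted p under 0.05 as a call; the standard error is the log2 fold change over the root of F. The fit was tested on simulated data in which only genes with a pooled CPM above that of every member were changed. It was therefore not checked for changes at the members' levels. Pooled ratios carry exact conditional binomial (Clopper-Pearson) 95% intervals, which cover counting error only. PCR copies are not separate molecules. Lengths and sequences came from GENCODE M21 and RefSeq, both GRCm38, matched by symbol (all 10 members for lengths; 8 promoters of 7 members), so the files' build and this one differ and no coordinates of the counts are given. Alternatives were 4 other scalings, 2 other filters, DESeq2 1.42.0, limma-voom (limma 3.58.1), a replicate block, each library left out, other lengths and, added after seeing the data, Aldh1a1 and Aldh1a7 as 1 gene.

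The members, gene lists and tests were chosen with earlier results of these data known. All members were named, with up to 4 called genes of each pathway list or, where none was called, its 2 most abundant in the knockouts, and the 3 genes most like Aldh1a1. Some items are not reported here.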

Additional observations from a re-analysis of the deposited data

How the results depend on the processing

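No member was called under any of the alternatives run, though DESeq2 gave an adjusted p for 3 of the 7, and Aldh1a1, Aldh1a7 and Aldh9a1 left the tested genes without knockout 2 or knockout 3, and Aldh9a1 also without knockout 1. The number of members at an unadjusted p under 0.05 was 0 with edgeR, DESeq2 and limma-voom on totals, 4 with either TMM scaling and 3 with RLE, settings under which 2830, 2955 and 2399 of all tested genes had one, against 1072 in the test reported. Genes called higher over the whole table numbered 16, and 5 with TMM including Rn45s and Lars2, 147 with TMM without them, 47 with DESeq2, 0 with limma-voom (800 genes at an unadjusted p under 0.05) and 4 with the replicate block. Leaving out 1 library gave 0 to 19, the 0 without knockout 1. Genes called lower numbered 133, and 27, 71, 81 and 354 with TMM including both genes, TMM without them, RLE and upper quartile factors. They were 898 without a filter, 388 with at least 1 CPM in 2 libraries, 472 with DESeq2, 5 with the replicate block, and 4 (without knockout 1) to 378 (without control 1) with 1 library left out, 254 without control 2, 48 without knockout 2 and 63 without knockout 3. Libraries with the same replicate number in their titles had correlations of deviations of -0.0075 and 0.0127. With so few control counts these values cannot tell whether the libraries were paired, so what the block stands for is not known. The sign of Aldh7a1 (-0.16, log2) turned to 1.64 and 1.7 with TMM with and without both genes, 1.28 with RLE, 0.19 with upper quartile factors and 0.19 with the replicate block. With 1 library left out it ran from -0.92 to 1.49. Aldh18a1 turned to 0.49 and 0.55 with the 2 TMM scalings and 0.099 with RLE. Aldh3a2 (0.28) turned to -0.68 with limma-voom and ran from -0.75 to 7.48 with 1 library left out. Cyp26b1 ran from -6.54 to 5.41 with a control left out and was not tested with a knockout left out; with the replicate block it was -4.49 and its call was lost (adjusted p = 0.962, edgeR). The Aldh1a1 share per kilobase (9.2%) was 15% with longest transcripts and 7.83% to 11.3% with a knockout left out. The ratio of summed CPM (1.28) ran from 0.877 to 2.01 with 1 library left out and was 5.86 on totals with Rn45s and Lars2. The cause was not tested. With a control left out, the lone control is assumed to vary like the knockouts. Control depth limits every comparison: a count of 0 allows 21.5 CPM.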
